A study of Schizosaccharomyces pombe with 2 samples.

Results

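Entry into S phase in fission yeast, Schizosaccharomyces pombe, depends on a wave of transcription at the boundary of G1 and S. The 10 genes described here (cdc18, cdt1, cdc22, suc22, cdt2, cig2, mik1, nrm1, mrc1 and ams2) act in that wave. They were chosen by name from the platform annotation of an Affymetrix Yeast Genome 2.0 array, with earlier results of these data known. Each had a single probe set of its own, and together they are 10 of the 2896 S. pombe genes that the array names. RNA came from 2 cultures in mid-log phase in the rich medium YES, and each was hybridised to 1 array. The untreated culture received no compound, while the treated culture received 0.5 mM DETA NONOate, a donor that releases nitric oxide slowly, for 2 h. The labels give no strain, no genotype and no time for the untreated culture, and no array carries cells given the compound after its nitric oxide was spent.

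The wave is driven by MBF, a complex of Cdc10 with the DNA-binding proteins Res1 and Res2, which binds upstream of its target genes and activates them as cells leave G1. Its products license replication origins, supply deoxyribonucleotides, drive and restrain the cyclin-dependent kinase Cdc2, and prepare the histone supply. Among the targets, nrm1 and yox1 encode proteins that bind MBF and close the wave, and the replication checkpoint kinase Cds1 can hold it open. In cultures growing fast in rich medium most fission yeast cells are in G2, and a bulk RNA level of a G1/S gene depends on how many cells are in the wave as well as on how much RNA each holds. These cannot be told apart in a bulk sample.

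Signals are on a linear scale, and each array had been scaled by the authors to a 2% trimmed mean of 500. Each ratio below is log2 of the treated signal minus log2 of the untreated signal. Background was set at the 95th percentile of the 2601 Saccharomyces cerevisiae probe sets, at signals of 7.99 (untreated) and 8.76 (treated), and 2889 S. pombe genes passed it on at least 1 array. All 10 genes did so on both, with signals from 10.2 to 647 times background. The array also holds probe sets for the S. cerevisiae genes MRC1 and NRM1, which lay below background on both arrays and were kept apart from their S. pombe namesakes. There is 1 array per group, so the treatment cannot be tested, p-values are left out, and precision is limited by the number of arrays. Among control RNAs added to the samples, 35 probe sets passed a signal of 100 on both arrays. Their log2 ratios had an SD of 0.15 and reached 0.42 in absolute value. That SD covers at most hybridisation and labelling, and leaves out any difference between cultures.

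On the array of treated cells 8 of the 10 genes had a higher signal, mik1 had the same signal to 3 digits, and suc22 had a lower one. The highest ratio belonged to cdt2 (3.27-fold), followed by cdc22 (1.97-fold), ams2 (1.96-fold) and cdc18 (1.58-fold). Their median log2 ratio was 0.46, against −0.01 over all 2889 measured genes, and ratios above 0 were found for 49.2% of all genes. At 2-fold, 1 of the 10 was higher, where 2.25% of all genes were, and 0 were lower, where 2.04% were. At 1.5-fold, 4 of the 10 were higher, where 5.68% of all genes were, and 0 were lower, where 6.61% were. The 10 genes were picked with earlier results of these arrays known, so these counts describe the genes and test nothing.

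**Figure D1:**
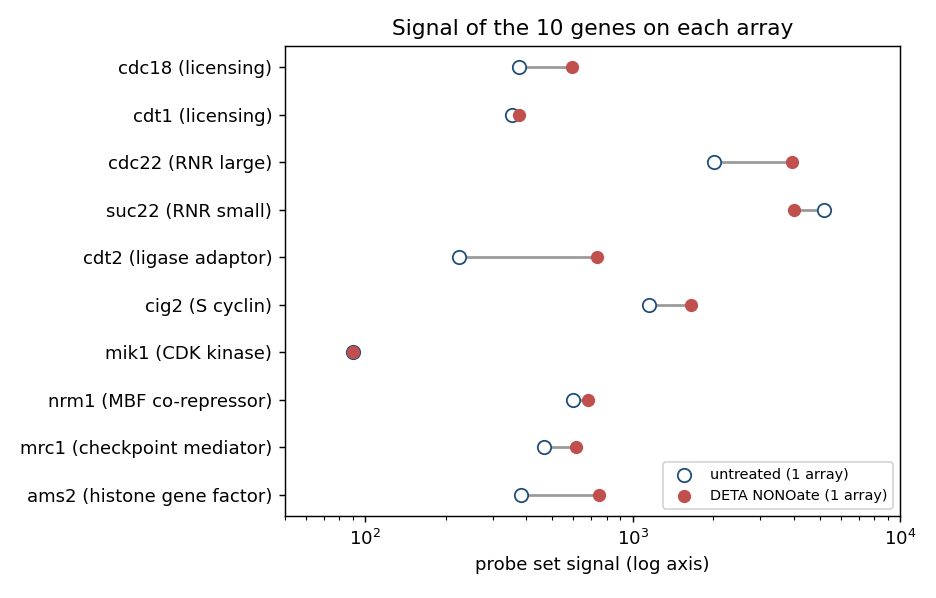
Probe set signal of each of the 10 genes (log axis) on the untreated array (open circles) and on the array of cells given DETA NONOate (filled circles), 1 array each, with no error bars because there are no replicates. The widest gap is that of cdt2, from 224 to 733. The circles of mik1 coincide at 89.6, and suc22 is the gene whose filled circle lies to the left.

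Origin licensing was represented by a pair of genes whose products load the Mcm helicase onto origins together. The gene cdc18 (SPBC14C8.07C), for the fission yeast counterpart of Cdc6, went from a signal of 375 in untreated to 592 in treated cells, a log2 ratio of 0.66. Only 4.47% of measured genes had a ratio as high. The gene cdt1 (SPBC428.18), for the loading partner of Cdc18, had signals of 354 and 377, a log2 ratio of 0.09, which lies within the SD of the control probe sets. Its ratio was 0.57 below that of cdc18 on the log2 scale. The helicase and origin recognition genes themselves stayed close to 0 or slightly below. Of 12 such genes (orc1 to orc6 and mcm2 to mcm7), 0 differed 1.5-fold, where 5.68% of all measured genes were higher and 6.61% lower. Of the 12, 11 had ratios below 0, where 1467 of all 2889 measured genes did, and the median was −0.10. The lowest were orc6 with −0.31, mcm6 with −0.25 and mcm5 with −0.23.

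Ribonucleotide reductase makes deoxyribonucleotides from ribonucleotides with a large subunit, the product of cdc22, and a small subunit, the product of suc22, which carries an iron centre and a tyrosyl radical. The genes for its subunits differed in direction. The large subunit gene cdc22 (SPAC1F7.05) had signals of 2007 and 3948 on the untreated and the treated array, a log2 ratio of 0.98, just under 2-fold, and stood at rank 69 from the highest of 2889. The small subunit gene suc22 (SPBC25D12.04) had signals of 5175 and 4010, or 1.29-fold lower on the treated array, a log2 ratio of −0.37. That value lies within the 0.42 that the control probe sets reached, and 15.0% of all measured genes had a ratio as low. The ratio of suc22 thus lay 1.34 below that of cdc22 on the log2 scale, a 2.54-fold difference between the ratios of the subunit genes. Signals of different probe sets are not on a common scale, so the amounts of the transcripts of cdc22 and suc22 are not compared. The gene suc22 is known to give a shorter transcript present throughout the cycle and a longer, periodic one, and its single probe set gives 1 value for the gene.

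Other genes of nucleotide supply lay mostly below 0. The gene spd1, for a small protein that inhibits ribonucleotide reductase and is destroyed when S phase starts, had signals of 1932 and 1565 and a log2 ratio of −0.30. Ratios were −0.53 for the dihydrofolate reductase gene dfr1, whose product serves thymidylate synthesis, and −0.22 for gua1 of guanine nucleotide synthesis. Among 5 measured genes of nucleotide supply and reductase control, 0 differed 1.5-fold, where 5.68% of all measured genes were higher and 6.61% lower. Of the 5, 4 had ratios below 0, where 1467 of all 2889 measured genes did, and the median was −0.22. Of the 4, only dfr1 lay beyond the 0.42 that the control probe sets reached. Not measured were spd2, dcd1, dut1 and tds1, which had no named probe set, and tmk1, which matched no gene name.

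The gene cdt2 (SPAC17H9.19C) encodes the adaptor through which the Cul4 and Ddb1 ubiquitin ligase recognises Cdt1 and Spd1 on chromatin during S phase and after DNA damage. Its signal was 224 in untreated and 733 in treated cells, a log2 ratio of 1.71 and rank 23 from the highest of 2889. The ratio exceeded that of the next gene, cdc22, by 0.73 on the log2 scale. It lay above the central 95% of the 578 genes of similar mean signal, which spanned −0.81 to 0.92. The rest of the ligase did not show such a ratio. The core genes ddb1, cul4 and rbx1 had log2 ratios of 0.03, 0.01 and −0.05. Of 12 measured genes for the ligase, the COP9 signalosome and the conjugation of the ubiquitin-like protein Ned8 to cullins, the median was −0.09, 0 were 1.5-fold higher, where 5.68% of all genes were, and 2 were 1.5-fold lower or more, where 6.61% of all genes were. The lower ones were ned8 itself, with signals of 860 and 467 and a log2 ratio of −0.88, and ubc12, for the enzyme that conjugates Ned8, with dim signals of 64.3 and 40.4 and a log2 ratio of −0.67. The ratio of ubc12 was −0.51, under 1.5-fold, when 16 was added to every signal in place of the floor. Next was csn1 of the signalosome with −0.43.

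**Figure D2:**
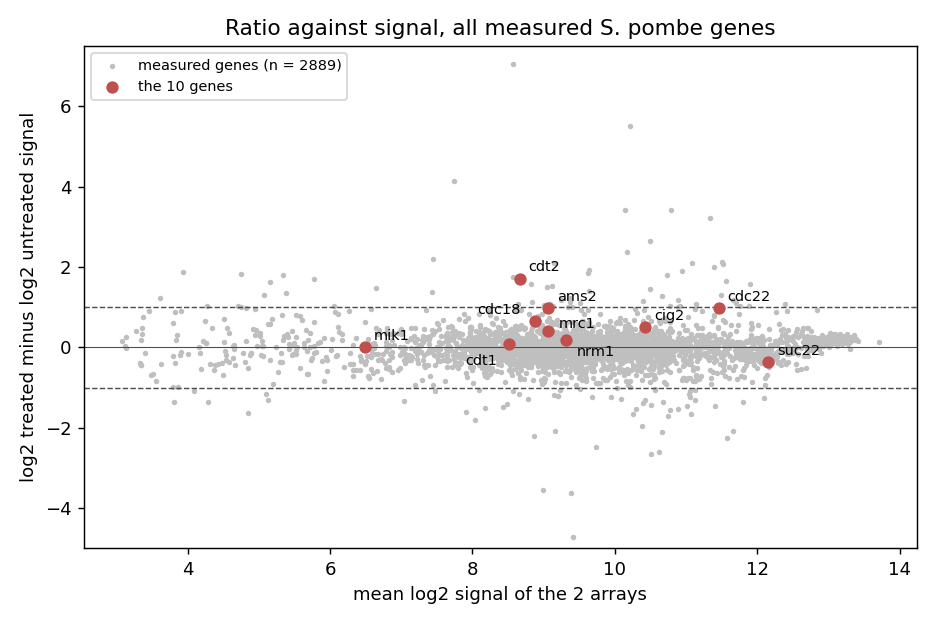
Log2 ratio (treated minus untreated) against the mean log2 signal of the 2 arrays for all 2889 measured S. pombe genes (grey) and the 10 genes (red), with dashed lines at 2-fold. Of the 10, cdt2 lies above the upper line with a log2 ratio of 1.71, cdc22 and ams2 lie just under it with 0.98 and 0.97, and suc22 lies below 0 with −0.37.

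Cyclin and kinase genes of the wave differed from each other. The gene cig2 (SPAPB2B4.03), for the main cyclin that drives S phase, had signals of 1154 and 1646, a log2 ratio of 0.51 and a fold of 1.43. The gene mik1 (SPBC660.14), for a kinase that restrains Cdc2 while DNA is replicated, had a signal of 89.6 on both arrays and was the dimmest of the 10. The gap between cig2 and mik1 was 0.51 on the log2 scale. Among 19 other genes for Cdc2 and its control, 0 differed 1.5-fold, where 5.68% of all measured genes were higher and 6.61% lower. Of the 19, 14 had ratios above 0, where 49.2% of all measured genes did, and the median was 0.05. The outermost were pyp3, for a phosphatase that activates Cdc2, with 0.54, the G1 cyclin gene puc1 with 0.52, and suc1, for a Cdc2-binding protein, with −0.53. Of the rest of the 19, the log2 ratio was −0.25 for cdc2, 0.09 for rum1, which encodes the inhibitor of Cdc2 in G1, and 0.04 for wee1. The mitotic cyclin gene cdc13 had 0.05. Ratios were 0.51 for cdr2, 0.42 for cdc25, 0.41 for cdr1, −0.40 for pop2 and −0.23 for pop1.

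Genes that regulate MBF had ratios above 0 by small amounts. The gene nrm1 (SPBC16A3.07C), for the co-repressor that ends the wave, had signals of 598 and 680, a log2 ratio of 0.19, at which 25.6% of all measured genes were as high. All 5 measured MBF genes were above 0, where 49.2% of all measured genes were, and their median was 0.36. They were rep1 with 0.63, cdc10 with 0.41, res2 with 0.36, res1 with 0.32 and rep2 with 0.23. All but rep1 lie within the 0.42 that the control probe sets reached. The first, rep1, encodes an activator of the complex that also acts in meiosis and had dim signals of 43.9 and 68.1. It was the single one of the 5 past 1.5-fold, where 5.68% of all measured genes were higher and 6.61% lower. The log2 ratio of rep1 was under 1.5-fold with 16 added in place of the floor (0.49) and after quantile normalisation (0.55). A probe set that the platform names yox1, after the partner of Nrm1 in repression, had signals of 153 and 243, or 1.59-fold higher on the treated array. Its gene number was not found in the gene table used for names, so it entered no count.

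The other genes described as transcribed at G1/S, apart from the 10, had a median close to theirs. All 6 with a measured probe set had ratios above 0, where 49.2% of all measured genes did, with a median of 0.49 against 0.46. The gene ctp1, which encodes a factor that starts the processing of DNA breaks and was the single listed gene past 2-fold, had signals of 477 and 959, a 2.01-fold difference. The others were pol1, for the catalytic subunit of DNA polymerase alpha, with a log2 ratio of 0.55, the cohesin genes psm3 and rad21 with 0.52 and 0.46, ssb1, for the large subunit of the single-strand binding protein, with 0.28, and the mismatch repair gene msh6 with 0.11. Counting the 10 and these 6, only cdt2 and ctp1 reached 2-fold, where 2.25% of all measured genes were higher and 2.04% lower.

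Checkpoint and chromatin genes completed the 10. The gene mrc1 (SPAC694.06C), for the fork protein that passes the signal of stalled replication to Cds1, had signals of 465 and 616, a log2 ratio of 0.40. Its place was between cig2 (0.51) and nrm1 (0.19), and 10.5% of all measured genes had a ratio as high. Among 13 other replication checkpoint genes 0 differed 1.5-fold, where 5.68% of all measured genes were higher and 6.61% lower. The median of the 13 was −0.02. The kinase gene cds1 had the highest ratio of these, 0.49, while rad1, for a subunit of the checkpoint clamp, had −0.48 and the kinase gene chk1 had −0.37. The fork protection genes swi1 and swi3, whose products travel with Mrc1, had −0.27 and −0.29, the opposite sign to mrc1. These ratios and that of mrc1 lie within the 0.42 that the control probe sets reached. The genes swi1 and swi3 were picked after their values were seen.

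The gene ams2 (SPCC290.04) encodes a GATA-type factor that activates the core histone genes in S phase and takes part in loading the centromeric histone Cnp1. Its signal was 381 in untreated and 746 in treated cells, a log2 ratio of 0.97, and it lay above the central 95% of genes of similar mean signal (−0.81 to 0.92). The core histone genes, whose copies are nearly identical so that a probe set may not separate them, had ratios between −0.15 and 0.27 and a median of 0.20 over 9 genes. The highest were htb1 with 0.27, hht1 with 0.25 and hht3 with 0.24. These are among the brightest genes of the array, where the median ratio of all genes was 0.07. The list for centromeric histone deposition had a median of −0.22 over 6 genes. In it, cnp1 had 0.45, sim3, for a histone chaperone, had −0.49, and mis18, for a centromere loading factor, had −0.72. Signals of mis18 were 119 and 72.4, so it was dim on the treated array. It was the single one of the 6 past 1.5-fold, where 5.68% of all measured genes were higher and 6.61% lower.

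**Figure D3:**
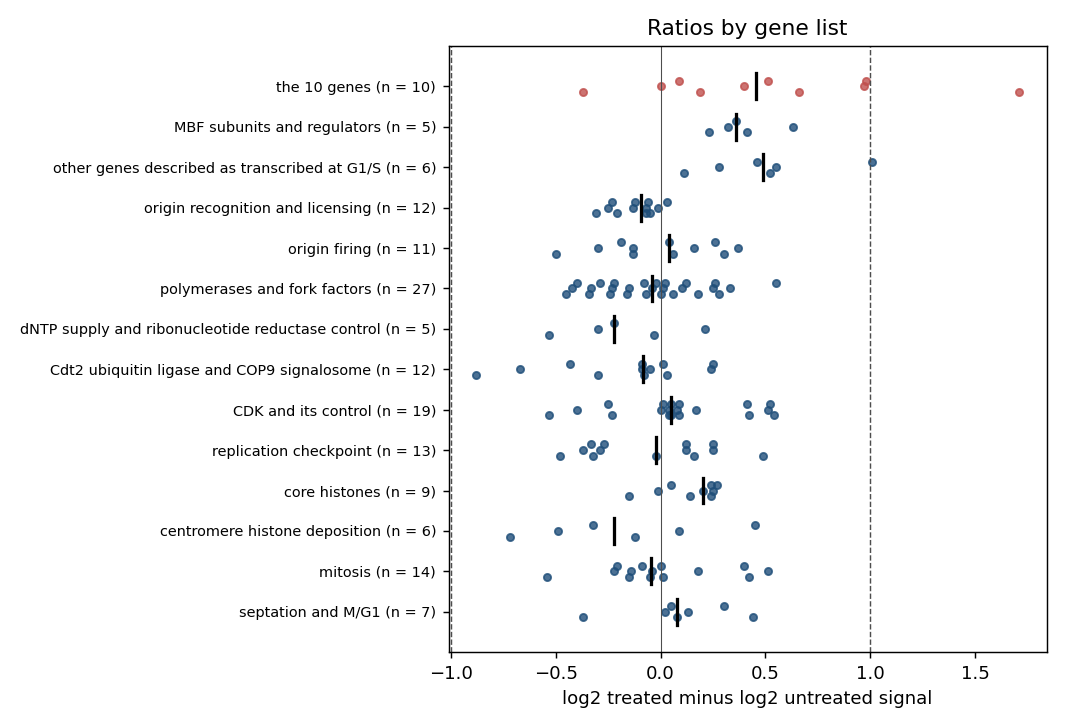
Log2 ratio (treated minus untreated signal, 1 array each) of the 10 genes (red) and of the measured genes in 13 related lists (blue), each point a gene and each black bar the median of its list, with dashed lines at 2-fold. Medians are 0.46 for the 10 genes, 0.49 for the other G1/S genes and 0.36 for the MBF genes, while those of the remaining lists lie between −0.22 and 0.20.

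The lists of other replication genes and of genes of other cycle stages had medians near 0. For 11 origin firing genes the median was 0.04, with sld3 at 0.37, psf1 at 0.30 and psf3 at −0.50. For 27 genes of polymerases and fork factors it was −0.04, and of these pol1 had the highest ratio, and both pol1 and ssb1 are also listed with the G1/S genes. At the low end, ssb3 and spp2 had −0.45 and −0.42. Mitotic genes, taken as markers of another cycle stage, had a median of −0.04 over 14 genes, with cut7 at 0.51, sep1 at 0.42 and slp1 at −0.54. Genes of septation and the passage from mitosis to G1 had a median of 0.08 over 7, with eng1 at 0.44, adg1 at 0.30 and chs2 at −0.37. None of these genes differed 1.5-fold, where 5.68% of all measured genes were higher and 6.61% lower. Whether a different share of cells in each cycle stage took part in the ratios of the 10 genes was not tested. Over all 13 lists, 143 genes counted once each, 1 was at least 2-fold higher and 0 were 2-fold lower, against 2.25% and 2.04% of all measured genes, and the median was 0.00.

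The genes beside the 10 in the genome were examined as well. Of the 20 nearest protein-coding neighbours of the 10 genes, 13 were measured, and their median log2 ratio was 0.01. The neighbours of suc22 are mcm7, with a ratio of −0.12, and trm1, with signals of 1298 and 873 and a ratio of −0.57, below that of suc22. Beside ams2, nup186 and ptc1 had 0.14 and 0.37. A neighbour of mik1 is ssb1, with 0.28. The cell wall regulator gene rho1 beside cdc22 had −0.02, and the cohesin gene psc3 beside cdt2 had 0.22. A single one of the 13 measured neighbours passed 2-fold, where 2.25% of all measured genes were higher and 2.04% lower. This neighbour was grx5, whose product is a glutaredoxin that helps build iron-sulphur clusters in mitochondria. It adjoins cig2 and had signals of 1175 and 278, a log2 ratio of −2.08. The ratios of cig2 and its neighbour therefore had opposite signs.

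In order of ratio the 10 genes were cdt2, cdc22, ams2, cdc18, cig2, mrc1, nrm1, cdt1, mik1 and suc22. Neighbours in that order were 0.01 to 0.73 apart on the log2 scale. The widest gap was that between cdt2 and cdc22. Without replicate arrays the order of neighbours has no error, and the spread between cultures is not known. The ratios of cdc22 and ams2 lay so close to 2-fold that the way of processing set which side they fell on. After quantile normalisation cdc22 passed 2-fold. With a trend of ratio on signal subtracted, the log2 ratio was 1.03 for cdc22 and 1.01 for ams2. Over all settings the ratio of cdt2 stayed between 1.64 and 1.73 and that of suc22 between −0.39 and −0.35.

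**Figure D4:**
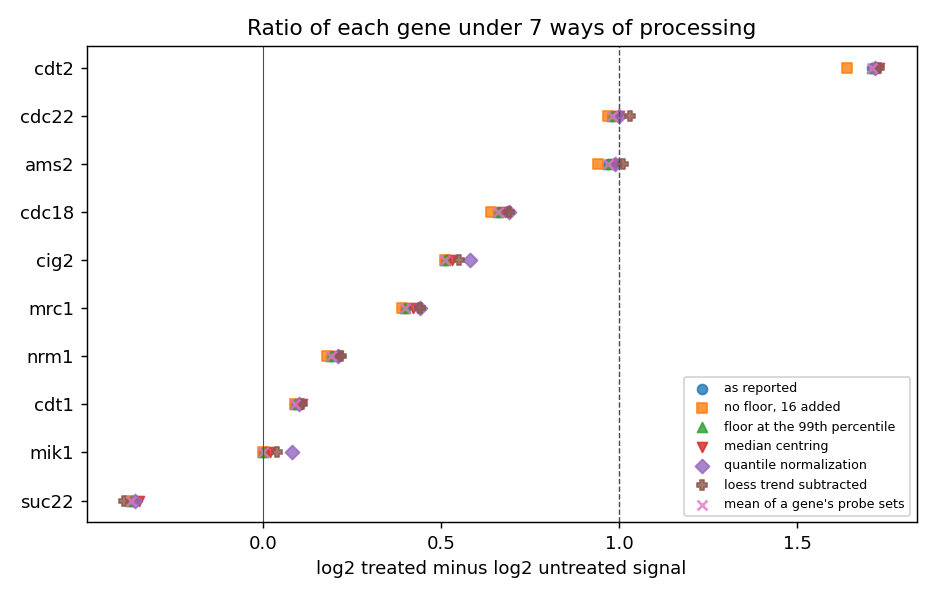
Log2 ratio (treated minus untreated signal) of each of the 10 genes as reported and under 6 other ways of processing the same 2 arrays, with a dashed line at 2-fold. Points of 1 gene nearly coincide; cdc22 spans 0.97 to 1.03 and ams2 spans 0.94 to 1.01 across the line, and suc22 stays below 0 throughout.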

How the data were processed

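Total RNA of 2 cultures was hybridised to 1 array each, and the groups follow the treatment in the labels. Intensity values, 1 per probe set and not log-transformed, were deposited by the authors, who ran Affymetrix Expression Console according to the submitters' processing notes. Its version, and how probes were summarised, is not given in the sources used here. Each array was scaled to a common mean, so ratios cannot show a change shared by all transcripts. S. pombe genes were named by gene number through the RefSeq table of assembly ASM294v3. Signals below background were raised to it before log2, and the brightest probe set stood for a gene with several. Genes of similar mean signal are 1 of 5 equal groups by mean log2 signal. The counting steps were tested on simulated data. The 10 genes and the 13 lists were chosen with earlier results of these arrays known. Named are the 10 genes and, per list, those past 2-fold and the 3 largest absolute ratios. Other genes named (res1, rep2, rad21, ssb1, msh6, ddb1, cul4, rbx1, swi1, swi3, cdc2, rum1, wee1, cdc13, yox1 and the genome neighbours) were picked after their values were seen. So were cdr1, cdr2, cdc25, pop1 and pop2. Alternatives were thresholds of 1.5-fold and 3-fold, 16 added with no floor, quantile normalisation, centring on the median, the 99th percentile as floor, a subtracted loess trend (span 0.3), and the mean of a gene's probe sets. Python 3.11.15, numpy 2.4.6, pandas 2.3.3 and statsmodels 0.14.6 were used.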

Additional observations from a re-analysis of the deposited data

How the results depend on the processing

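The median ratio of the 10 genes stayed between 0.45 and 0.51 under the 6 other ways of processing, and the gap of suc22 below cdc22 between −1.41 and −1.34. The count of the 10 genes past 2-fold, 1 as reported (cdt2), was 4 at a threshold of 1.5-fold, 2 after quantile normalisation (with cdc22) and 3 with the loess trend subtracted (with cdc22 and ams2), all of them higher. Of the listed related genes, 1 passed 2-fold as reported (ctp1), 5 passed 1.5-fold (2 higher and 3 lower), 0 passed 3-fold and 0 passed 2-fold with no floor and 16 added. A lower threshold lets in more genes by construction, and ctp1 lies at 2.01-fold. At 1.5-fold, rep1 and ubc12 also lie near the threshold, with log2 ratios of 0.49 and −0.51 under 16 added. None of the alternatives gave the opposite direction for a gene past 2-fold, and mik1 moved from 0 to a log2 ratio of at most 0.08. No alternative moved the median of all genes by over 0.02. No paired analysis was possible because each group has 1 array, and for the same reason no replicate could be left out. The number of arrays limits every value here, and signals under 100, as for mik1, rep1, ubc12, chk1 and (treated array) mis18, are nearest to background.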
